A study of Homo sapiens with 30 samples.

Results

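RNA of 6 genes of the EGF receptor system was read in hCMEC/D3 cells, a human brain microvascular endothelial line, immortalised, that serves in culture as a model for the blood-brain barrier. The 6 genes, taken by symbol from 63138 genes in the table, were AREG, EREG, HBEGF, TGFA and NRG1, which encode ligands, and EGFR, which encodes the receptor. Each symbol belonged to 1 gene ID, and all 6 genes passed the filter on low counts in each fit. The 30 libraries fell into 10 groups of 3, all of 1 batch by the labels. In 5 direct groups the cells were kept for 12 h in medium without serum (Control) or given TNF (25 ng/mL), interleukin-1 beta (IL1b, 10 ng/mL), C5a, a fragment of complement (50 ng/mL), or epinephrine (200 nM). In 5 vesicle groups, cells of this line were given extracellular vesicles from the supernatant of cells treated in one of those ways. These groups are named after the treatment of the donor cells, with the prefix EV: EV-Control and EV-TNF, then EV-IL1b, EV-C5a, and lastly EV-Epinephrine. The labels give 12 h for these groups too. The labels give no vesicle dose and do not say whether replicates were separate cultures, so each p-value measures the spread between these libraries only. EV-Control cells received vesicles of unstimulated cells, and only Control received neither a stimulus nor vesicles.

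The EGF family is made as membrane-bound precursors that metalloproteases of the ADAM family cut to release the ligand. Released ligand binds a receptor of the ERBB family, which pairs with a further receptor and passes the signal on, above all through the ERK kinases. AREG, EREG, HBEGF and TGFA bind EGFR, and EREG and HBEGF also bind ERBB4. NRG1 binds ERBB3 and ERBB4 and not EGFR, so the name EGF receptor ligand fits NRG1 only as a member of the family.

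AREG (ENSG00000109321) lies on chromosome 4 at 74445134 to 74455009 and EREG (ENSG00000124882) upstream of it on the same strand at 74365143 to 74388751, 56382 bp apart, in the cluster of ligand genes that also holds EPGN and BTC. HBEGF (ENSG00000113070) lies on chromosome 5 at 140332843 to 140346631 on the minus strand (GRCh38, GENCODE 29).

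The 250 bases before the start of AREG, EREG and HBEGF are shown because these ligands were called in the most comparisons with Control and EV-Control, and because AREG and EREG lie in the same cluster, with 1 annotated gene between them, and changed in opposite directions after 3 of the 4 stimuli. They are RefSeq sequences of GRCh38.p14, printed 5′ to 3′ on the gene's strand: chr4:74444886-74445135 for AREG and chr4:74364895-74365144 for EREG, both on the plus strand, and chr5:140346604-140346853 for HBEGF, on the minus strand. The starts are those of the RefSeq entries and differ from the GENCODE positions above. The last bases of each window, most of all for HBEGF, therefore lie inside the GENCODE gene. Capitals mark matches to the motifs described after them.
AREG: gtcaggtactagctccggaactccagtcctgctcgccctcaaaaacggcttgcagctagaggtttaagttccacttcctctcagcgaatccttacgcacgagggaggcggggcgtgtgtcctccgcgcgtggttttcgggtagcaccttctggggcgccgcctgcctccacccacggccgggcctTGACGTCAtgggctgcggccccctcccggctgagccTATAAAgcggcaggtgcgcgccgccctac
EREG: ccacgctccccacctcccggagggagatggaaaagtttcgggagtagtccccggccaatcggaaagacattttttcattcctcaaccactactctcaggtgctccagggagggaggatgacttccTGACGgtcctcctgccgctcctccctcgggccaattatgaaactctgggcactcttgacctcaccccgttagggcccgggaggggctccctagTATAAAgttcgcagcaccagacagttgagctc
HBEGF: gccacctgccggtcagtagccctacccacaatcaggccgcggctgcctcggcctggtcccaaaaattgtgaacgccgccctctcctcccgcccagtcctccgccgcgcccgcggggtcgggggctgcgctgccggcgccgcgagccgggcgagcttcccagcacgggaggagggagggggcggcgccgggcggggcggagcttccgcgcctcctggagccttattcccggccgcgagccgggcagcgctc

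Both strands were searched for 5 motifs. The cAMP response element TGACGTCA, the site bound by CREB, stands 65 to 58 bases before the AREG start and occurs in 1.65% of 35116 promoter windows of this length (578 windows). EREG holds its shorter form TGACG 125 to 121 bases before the start, which 21.2% of windows hold and which the full element contains on both strands. Both genes hold a TATA box, TATAAA, at 29 to 24 bases before the AREG start and 32 to 27 before that of EREG (10.7% of windows). No match to the AP-1 site TGANTCA (6.57% of windows) or the kappa B site (GGG, any 3 bases, then TTCC, 5.67%) was in these 3 windows, and HBEGF held none of the 5. A match describes these letters and is not a measured binding site. Of the 6 genes, 5 had an entry, and NRG1 did not.

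Libraries held 16643961 to 22112326 counts, and levels are given as CPM, counts divided by the library size in units of 1000000 counts, after scaling of the libraries with TMM (trimmed mean of M-values) factors. A count of 0 in a library allows up to 3 counts, or 0.138 to 0.2 CPM, which covers counting error only. All 12 endothelial markers were found, with a summed level of 929 to 1450 CPM, highest in Control and lowest in EV-Control and EV-C5a. AQP4, an astrocyte marker, had no count in any library, while EPCAM, CDH1 and KRT5 of epithelia stayed at or under 0.399 CPM. The 6 leukocyte markers summed to 1.56 to 4.13 CPM. Some markers on lists of other cell types were abundant here, such as GJA1 (123 to 279 CPM) and KRT18 (148 to 342 CPM). So were CSPG4 (251 to 442 CPM) and PDGFRB (34.4 to 88.8) of pericytes, and COL1A2 (126 to 217) and COL1A1 (56.5 to 123) of fibroblasts. Under 1 CPM in every library were 1 of 6 pericyte and smooth muscle markers, 2 of 5 fibroblast, 3 of 5 astrocyte and 3 of 6 epithelial markers. In bulk RNA, fewer cells of a type and less RNA per cell cannot be told apart.

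Per kilobase of exon, the scale on which genes can be compared, HBEGF was the most abundant member (26.8 CPM per kb over all libraries), followed by EGFR (12.5) and AREG (9.99). EREG (0.914), TGFA (0.254) and NRG1 (0.231) were low. EREG varied most, with a 47-fold range between its highest and lowest group means in CPM. The range was 9.98-fold for HBEGF, 8.11-fold for TGFA, 6.23-fold for AREG, 4.22-fold for NRG1 and 2.6-fold for EGFR. TGFA held only 2 to 69 counts and NRG1 17 to 101 counts in a library, so their values carry the most counting error. TGFA (ENSG00000163235) lies on chromosome 2 at 70447280 to 70554193, NRG1 (ENSG00000157168) on chromosome 8 at 31639386 to 32767959 and EGFR (ENSG00000146648) on chromosome 7 at 55019021 to 55211628. An antisense gene, EGFR-AS1, overlaps an EGFR exon. Whether counting used the strand is not given in the sources used here, and EGFR-AS1 had at most 10 counts in a library.

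**Figure D1:**
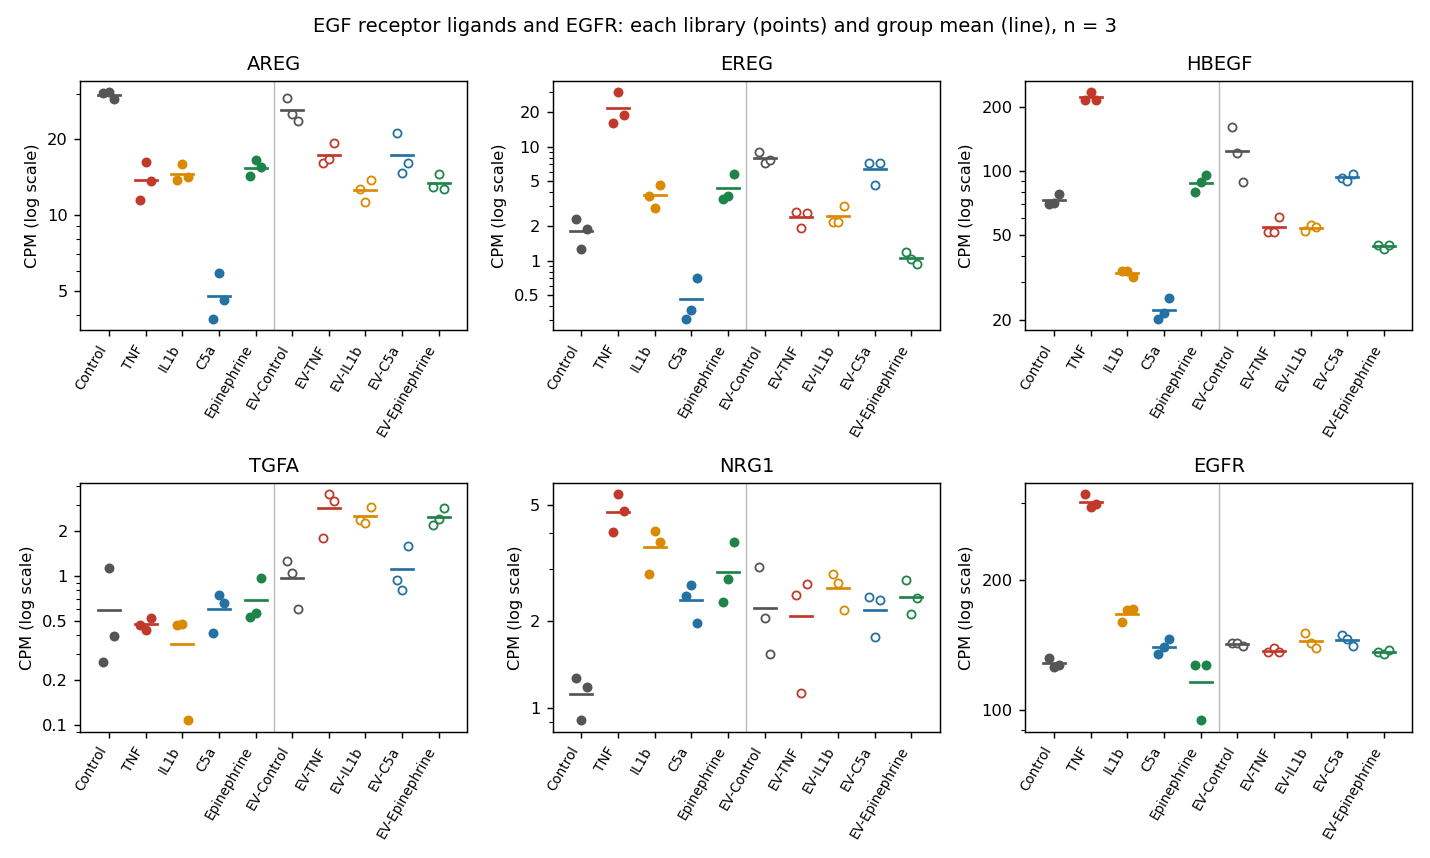
Level of each gene in CPM (log scale) in the 10 groups; each point is 1 of 3 libraries and the line is the group mean. Filled points are direct groups and open points vesicle groups. EREG, HBEGF, NRG1 and EGFR had their highest mean in TNF cells, and AREG, EREG and HBEGF their lowest in C5a cells.

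After TNF, 4 of the 6 genes rose and AREG fell. Across all genes, 52.7% of 15908 were called in this comparison, 27.5% higher and 25.3% lower, so the count of 5 members called is read beside a broad response. EREG, which encodes epiregulin, stood at 2.33, 1.28 and 1.91 CPM in the Control libraries and at 16.2, 29.9 and 18.9 CPM in the TNF libraries. The groups lay far apart, and every TNF library exceeded every other library of the series. EREG rose 11.8-fold (log2 fold change 3.56, SE 0.28, adjusted p = 2.05e-09, edgeR).

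HBEGF, the heparin-binding ligand, stood at 69.6, 70.9 and 77.8 CPM in Control and at 216, 234 and 216 CPM in TNF cells. These 3 libraries were likewise above all others, and HBEGF rose 3.05-fold (log2 1.61, SE 0.064, adjusted p = 1.94e-21). NRG1 went from 1.27, 0.908 and 1.18 CPM to 4.01, 5.43 and 4.74 CPM, with no overlap between the groups (log2 2.08, SE 0.25, adjusted p = 7.27e-09). The receptor gene EGFR went from 132, 126 and 127 CPM to 315, 294 and 299 CPM. No other group reached that level, and the rise was 2.35-fold (log2 1.24, SE 0.08, adjusted p = 2.47e-10).

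AREG, which encodes amphiregulin, fell in the same cells. Its Control libraries held 30.4, 30.5 and 28.6 CPM and its TNF libraries 11.4, 16.2 and 13.6 CPM, without overlap. The level was 2.16-fold lower (log2 fold change -1.11, SE 0.11, adjusted p = 1.04e-10). TGFA, the ligand transforming growth factor alpha, held 0.265, 1.12 and 0.394 CPM in Control and 0.468, 0.43 and 0.52 CPM in TNF cells. The groups overlapped, with Control replicate 2 above the rest, and no change was detectable at this depth (log2 -0.33, 95% interval -1.58 to 0.92). Scaling by total counts lowered the median of all genes after TNF from -0.012 to -0.288 on the log2 scale, and all 5 calls kept their direction under it. The summed epithelial markers, most of which was KRT18, were lowest in TNF cells (164 to 177 CPM, against 265 to 287 CPM in Control), and the astrocyte list, most of which was GJA1, was highest (264 to 281 against 126 to 143 CPM). Pericyte and smooth muscle markers stood at 465 to 486 CPM against 371 to 423, and fibroblast markers at 242 to 252 against 264 to 295. Endothelial markers were slightly lower, at 1330 to 1380 CPM against 1390 to 1450, and so were the low leukocyte markers, at 1.56 to 2.61 against 3.1 to 3.76. Their part in these results was not tested.

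IL1b raised EREG, NRG1 and EGFR and lowered AREG and HBEGF, so 5 of the 6 genes were called beside 46.6% of all genes (24% higher, 22.6% lower). HBEGF stood at 34, 34 and 31.6 CPM, below all 3 Control libraries. It fell where TNF raised it (2.18-fold lower, log2 -1.12, SE 0.071, adjusted p = 2.8e-15). AREG, at 13.7, 15.9 and 14.1 CPM, also lay under every Control library (2.04-fold lower, log2 -1.03, SE 0.11, adjusted p = 8.09e-10).

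EREG reached 3.66, 2.91 and 4.63 CPM after IL1b, above all Control libraries. The rise was 2.04-fold (log2 1.03, SE 0.33, adjusted p = 0.015). It was no longer called without Control replicate 2 (log2 0.82, adjusted p = 0.0723) or without IL1b replicate 3 (0.85, 0.0642). NRG1 reached 2.89, 4.07 and 3.73 CPM, clear of Control (log2 1.67, SE 0.26, adjusted p = 1.23e-06). EGFR reached 160, 170 and 171 CPM, a 1.31-fold rise above all Control libraries (log2 0.39, SE 0.08, adjusted p = 0.000623). TGFA, at 0.464, 0.476 and 0.107 CPM, overlapped Control and was not called (log2 -0.75, 95% interval -2.03 to 0.54).

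The cytokines were compared with each other in the same fit. With TNF as the reference, 3 of the 6 genes were lower after IL1b and none was higher. Of all genes 41.4% were called, 19.9% higher and 21.4% lower. HBEGF was 6.65-fold lower (log2 -2.73, SE 0.069, adjusted p = 1.45e-26), EREG 5.79-fold lower (log2 -2.53, SE 0.25, adjusted p = 9.61e-08) and EGFR 1.8-fold lower (log2 -0.85, SE 0.078, adjusted p = 7.12e-08). In each of them the IL1b libraries all lay below the TNF libraries. AREG differed by 0.08 (95% interval -0.18 to 0.34) and NRG1 by -0.4 (-0.88 to 0.07), neither of them called. With scaling by total counts the AREG difference was called (0.28, adjusted p = 0.0438).

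C5a lowered 3 ligands and raised 1, and 22.6% of all genes were called (11.8% higher, 10.8% lower). AREG stood at 3.88, 5.88 and 4.62 CPM, the lowest 3 libraries of the series. It was 6.19-fold below Control (log2 -2.63, SE 0.13, adjusted p = 5.8e-18). HBEGF, at 20.2, 21.4 and 25.2 CPM, was also lower than in every other group, 3.24-fold below Control (log2 -1.7, SE 0.074, adjusted p = 6.33e-19). EREG was near the limit of detection at 0.31, 0.371 and 0.703 CPM, which are 6, 7 and 14 counts. All 3 values lay below Control (3.9-fold lower, log2 -1.96, SE 0.48, adjusted p = 0.00601).

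NRG1 rose after C5a to 2.43, 2.65 and 1.96 CPM, above all Control libraries (log2 1.07, SE 0.27, adjusted p = 0.00298). EGFR, at 135, 140 and 146 CPM, lay just above Control without overlap and was not called (log2 0.13, 95% interval -0.05 to 0.31, adjusted p = 0.268). In a fit of the Control and C5a libraries alone it was called (adjusted p = 0.0134). TGFA, at 0.414, 0.741 and 0.653 CPM, overlapped Control (log2 0.03, 95% interval -1.16 to 1.21).

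Epinephrine raised EREG, NRG1 and, slightly, HBEGF and lowered AREG, and 25.2% of all genes were called (13.5% higher, 11.8% lower). EREG reached 3.51, 3.68 and 5.74 CPM (2.38-fold, log2 1.25, SE 0.32, adjusted p = 0.00685). NRG1 reached 2.31, 2.77 and 3.72 CPM (log2 1.4, SE 0.26, adjusted p = 8.4e-05). Both groups lay above all Control libraries. HBEGF, at 79.7, 88.8 and 95.4 CPM, was also clear of Control, by only 1.22-fold (log2 0.28, SE 0.065, adjusted p = 0.00115). That call was lost in a fit of all 30 libraries (adjusted p = 0.142).

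AREG fell after epinephrine to 14.3, 16.4 and 15.4 CPM, below all Control libraries (1.93-fold lower, log2 -0.95, SE 0.11, adjusted p = 1.97e-08). EGFR stood at 127, 94.8 and 127 CPM. Replicate 2 was the lowest EGFR value of the series and the other two lay within the range of Control (log2 -0.13, 95% interval -0.31 to 0.05, adjusted p = 0.272). TGFA, at 0.525, 0.566 and 0.964 CPM, overlapped Control (log2 0.23, 95% interval -0.93 to 1.39).

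Compared directly with C5a, epinephrine left 3 ligands higher, and 17.1% of all genes were called (8.98% higher, 8.08% lower). EREG was 9.26-fold higher (log2 3.21, SE 0.41, adjusted p = 1.41e-05), HBEGF 3.95-fold (log2 1.98, SE 0.073, adjusted p = 3.49e-21) and AREG 3.21-fold (log2 1.68, SE 0.13, adjusted p = 3.46e-12). In each of them every epinephrine library lay above the C5a libraries. EGFR was lower (log2 -0.26, SE 0.08, adjusted p = 0.0305), a call lost in a fit of these groups alone (adjusted p = 0.0991) and without C5a replicate 2 (0.074) or C5a replicate 3 (0.109). NRG1 (log2 0.33, 95% interval -0.18 to 0.85) and TGFA (0.2, -0.95 to 1.35) were not called. The comparisons of direct groups with Control share the same 3 Control libraries, so they are not independent of each other. Summed endothelial markers were lower after IL1b (1030 to 1070 CPM), C5a (1050 to 1110) and epinephrine (1150 to 1200) than in Control (1390 to 1450). Fibroblast markers were lower too, at 199 to 202, 226 to 240 and 186 to 200 CPM against 264 to 295, and so were pericyte and smooth muscle markers, at 334 to 350, 348 to 370 and 321 to 351 against 371 to 423. The astrocyte list was higher after IL1b (235 to 240 CPM), C5a (149 to 165) and epinephrine (196 to 202) than in Control (126 to 143), and the epithelial list after C5a (354 to 366 against 265 to 287). Their part in these results was not tested.

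Vesicles from unstimulated cells gave higher EREG, HBEGF and NRG1 than medium alone, and 21.9% of 16691 genes were called between EV-Control and Control (12.1% higher, 9.8% lower). EREG stood at 9.06, 7.17 and 7.67 CPM in EV-Control, above all Control libraries (4.31-fold, log2 2.11, SE 0.26, adjusted p = 5.22e-08). HBEGF stood at 160, 122 and 88.7 CPM. These libraries were the most scattered of any HBEGF group and still lay above Control (1.69-fold, log2 0.76, SE 0.13, adjusted p = 0.000164). The HBEGF call was lost in a fit of these groups alone (adjusted p = 0.114).

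NRG1 in EV-Control stood at 3.06, 2.04 and 1.53 CPM, clear of Control (log2 0.97, SE 0.3, adjusted p = 0.0118). It was not called without Control replicate 2 (0.84, adjusted p = 0.0686) or EV-Control replicate 1 (0.68, 0.165). AREG stood at 29.1, 25 and 23.5 CPM, overlapping Control (log2 -0.21, 95% interval -0.43 to 0.02). EGFR, at 143, 143 and 141 CPM, lay above Control without overlap but was not called (log2 0.15, adjusted p = 0.0843). It was called without the low-count filter (adjusted p = 0.0337) and in a fit of these groups alone (0.015). TGFA, at 1.26, 1.05 and 0.602 CPM, overlapped Control, where replicate 2 held 1.12 CPM (log2 0.69, adjusted p = 0.283). Without that library TGFA was called (1.54, adjusted p = 0.0307). Summed endothelial markers stood at 929 to 973 CPM in EV-Control and at 1390 to 1450 CPM in Control, and fibroblast markers at 208 to 235 against 264 to 295 CPM. Their part in these differences was not tested.

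Among the vesicle groups, EV-TNF, EV-IL1b and EV-Epinephrine each had lower AREG, EREG and HBEGF and higher TGFA than EV-Control, while NRG1 and EGFR were not called. Thus 4 of the 6 genes were called in each, beside 13.3% of 15918 genes in EV-TNF (5.9% higher, 7.42% lower), 14.6% in EV-IL1b (6.49% and 8.14%) and 19.7% in EV-Epinephrine (9.12% and 10.5%). The 3 comparisons share the EV-Control libraries. In these groups endothelial markers summed to 1020 to 1090 CPM, against 929 to 973 in EV-Control, and fibroblast markers, mostly COL1A1 and COL1A2, to 262 to 314 CPM against 208 to 235. Pericyte and smooth muscle markers summed to 445 to 511 CPM against 418 to 439, and the epithelial list was higher in EV-TNF (307 to 323) and EV-IL1b (302 to 317) than in EV-Control (283 to 295). Their part in the changes was not tested.

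EREG stood at 2.69, 1.94 and 2.61 CPM in EV-TNF, at 2.19, 2.2 and 3.02 CPM in EV-IL1b and at 1.19, 1.03 and 0.933 CPM in EV-Epinephrine. All 9 libraries lay below those of EV-Control, and the EV-Epinephrine libraries were the lowest of the vesicle groups. EREG fell 3.3-fold in EV-TNF (log2 -1.72, SE 0.2, adjusted p = 1.18e-09), 3.22-fold in EV-IL1b (log2 -1.69, SE 0.2, adjusted p = 2.84e-09) and 7.49-fold in EV-Epinephrine (log2 -2.9, SE 0.23, adjusted p = 4.85e-15).

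HBEGF stood at 51.7, 51.6 and 60.6 CPM in EV-TNF, at 52, 55.6 and 54.4 CPM in EV-IL1b and at 44.9, 43.2 and 44.7 CPM in EV-Epinephrine. None of these values reached the lowest EV-Control library. The fall was 2.26-fold (log2 -1.18, SE 0.17, adjusted p = 0.000855), 2.29-fold (log2 -1.19, SE 0.17, adjusted p = 0.000772) and 2.78-fold (log2 -1.48, SE 0.17, adjusted p = 0.000128). In fits of only the groups compared, the HBEGF call was lost for EV-TNF (adjusted p = 0.0766) and EV-IL1b (0.0643).

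AREG stood at 16, 16.6 and 19.2 CPM in EV-TNF, at 12.7, 11.2 and 13.7 CPM in EV-IL1b and at 12.9, 14.5 and 12.7 CPM in EV-Epinephrine. Again no library reached EV-Control. AREG fell 1.5-fold (log2 -0.59, SE 0.11, adjusted p = 7.21e-05), 2.07-fold (log2 -1.05, SE 0.11, adjusted p = 9.69e-10) and 1.93-fold (log2 -0.95, SE 0.11, adjusted p = 8.04e-09).

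TGFA went the other way. It stood at 1.78, 3.53 and 3.18 CPM in EV-TNF, at 2.37, 2.26 and 2.91 CPM in EV-IL1b and at 2.18, 2.4 and 2.86 CPM in EV-Epinephrine. These were its 9 highest libraries. TGFA rose 2.91-fold (log2 1.54, SE 0.31, adjusted p = 0.000222), 2.59-fold (log2 1.37, SE 0.32, adjusted p = 0.00126) and 2.56-fold (log2 1.35, SE 0.32, adjusted p = 0.00103).

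EGFR was nearly level across the vesicle groups, and NRG1 was not called in any of them against EV-Control. EGFR ran from 135 to 151 CPM over all 15 vesicle libraries, and its 95% interval was -0.14 to 0.03 for EV-TNF, -0.07 to 0.1 for EV-IL1b and -0.15 to 0.02 for EV-Epinephrine on the log2 scale. The EGFR libraries of EV-TNF and EV-Epinephrine all lay just below those of EV-Control, though neither difference was called (adjusted p = 0.424 and 0.289). NRG1 ran from 1.13 to 3.06 CPM, with wider intervals of -0.71 to 0.53, -0.38 to 0.84 and -0.47 to 0.75, so moderate changes in it could have been missed.

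EV-C5a hardly differed from EV-Control, with 8 genes called in all (0.0503% of genes, 0.0126% higher and 0.0377% lower), of which AREG was 1. AREG stood at 21, 14.7 and 16.1 CPM, below all EV-Control libraries (1.49-fold lower, log2 -0.58, SE 0.11, adjusted p = 0.0125). The call was lost with DESeq2 (adjusted p = 0.127), in a fit of these groups alone (0.321) and without EV-Control replicate 1 (0.0577), EV-Control replicate 2 (0.0663), EV-C5a replicate 2 (0.145) or EV-C5a replicate 3 (0.294). EREG stood at 7.22, 4.59 and 7.22 CPM and HBEGF at 92.9, 89.9 and 96.7 CPM, both within or overlapping the range of EV-Control (log2 -0.33, 95% interval -0.72 to 0.07, and -0.4, -0.77 to -0.04, adjusted p = 0.695 and 0.628). Without EV-Control replicate 3, the lowest HBEGF library of its group, HBEGF was called (-0.59, adjusted p = 0.00268). TGFA, at 0.942, 0.8 and 1.59 CPM, overlapped EV-Control, and so did NRG1 and EGFR (EGFR log2 0.03, 95% interval -0.05 to 0.12).

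**Figure D2:**
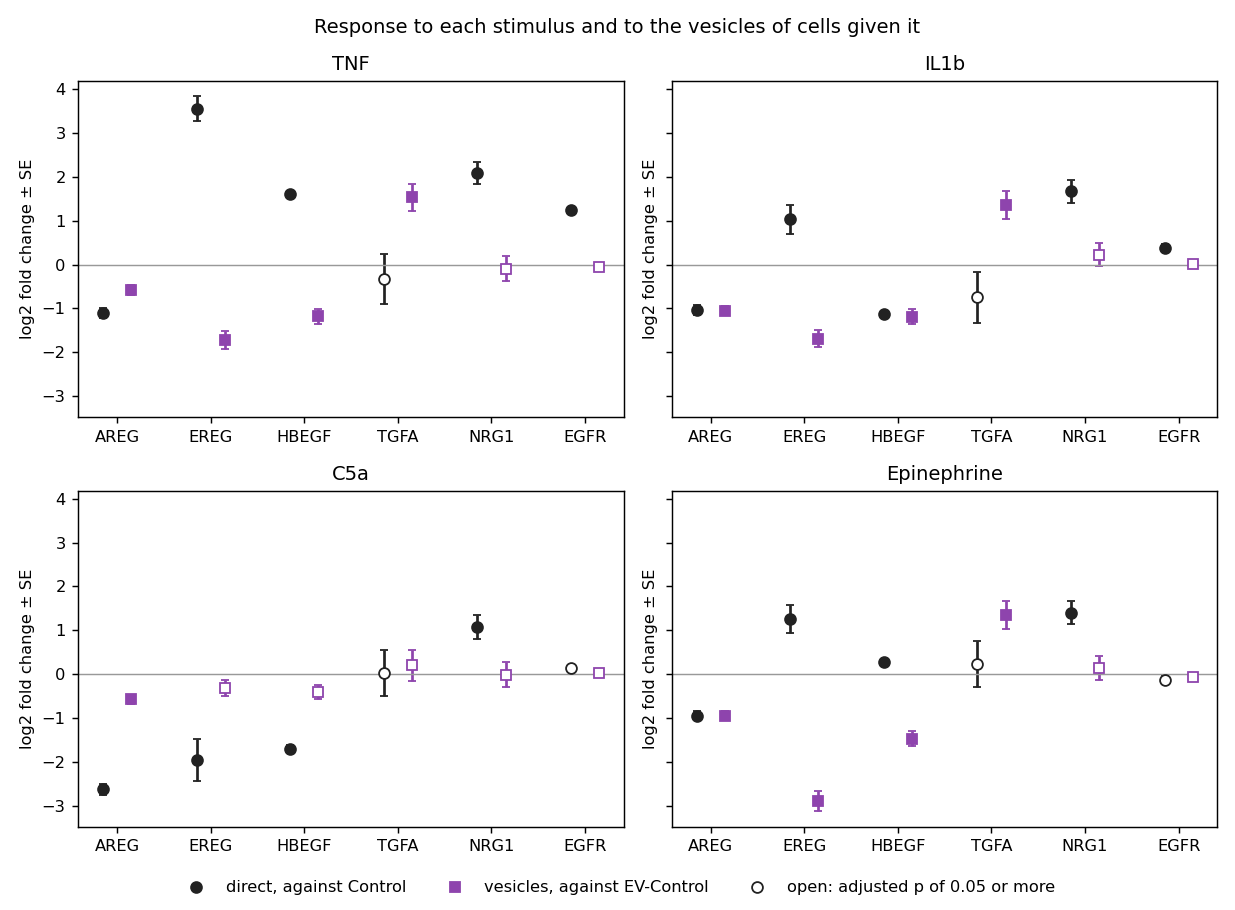
Log2 fold change ± SE of each gene after each stimulus against Control (black circles) and after the vesicles of cells given that stimulus against EV-Control (purple squares); open symbols had an adjusted p of 0.05 or more. For TNF, EREG stood at 3.56 in direct and -1.72 in vesicle cells.

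Whether a vesicle response differed from the direct response to its stimulus was tested in 1 fit of all 30 libraries, as the vesicle response minus the direct response. For TNF all 6 genes differed, beside 44.7% of all genes. The difference was -5.28 for EREG (SE 0.34, adjusted p = 6.92e-16) and -2.79 for HBEGF (SE 0.19, adjusted p = 3.12e-11). Both genes rose in TNF cells against Control and fell in EV-TNF cells against EV-Control. Mean EREG was 1.84 CPM in Control, 7.97 in EV-Control and 2.42 in EV-TNF, so its EV-TNF mean was not below that of Control. Mean HBEGF was 72.8 CPM in Control, 124 in EV-Control and 54.7 in EV-TNF. NRG1 (-2.16, SE 0.38, adjusted p = 3.29e-06) and EGFR (-1.29, SE 0.085, adjusted p = 4.15e-15) rose in TNF cells and were not called in EV-TNF cells. AREG fell less in EV-TNF than in TNF cells (0.53, SE 0.16, adjusted p = 0.00593), a difference of 0.82 with scaling by total counts. The TGFA difference of 1.87 (adjusted p = 0.00974) rested on Control replicate 2, without which it was 1.03 (adjusted p = 0.254).

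For IL1b, 4 of the 6 genes differed, beside 35.2% of all genes. EREG rose against Control in direct cells and fell against EV-Control in vesicle cells (-2.7, SE 0.37, adjusted p = 2.43e-07). NRG1 (-1.43, SE 0.38, adjusted p = 0.0022) and EGFR (-0.36, SE 0.086, adjusted p = 0.00104) were lower in their vesicle response. The TGFA difference was 2.13 (adjusted p = 0.00531), or 1.27 without Control replicate 2 (adjusted p = 0.179). The AREG and HBEGF responses to IL1b and to EV-IL1b differed by -0.01 (95% interval -0.34 to 0.33, adjusted p = 0.98) and -0.06 (-0.47 to 0.35, adjusted p = 0.851), and neither difference was called.

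For epinephrine, 3 of the 6 genes differed, beside 24.2% of all genes. EREG was higher after epinephrine than in Control and lower in EV-Epinephrine than in EV-Control. It differed by -4.14 (SE 0.4, adjusted p = 1.89e-10), and HBEGF by -1.75 (SE 0.19, adjusted p = 3.58e-07). NRG1 differed by -1.25 (adjusted p = 0.0119), a call lost without Epinephrine replicate 3 (-1.04, adjusted p = 0.06) or EV-Control replicate 1 (-0.96, 0.0876). AREG fell in both, with a difference of 0.01 (95% interval -0.33 to 0.35, adjusted p = 0.98).

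For C5a, 3 of the 6 genes differed, beside 11.9% of all genes. AREG fell after C5a and less in EV-C5a cells (2.06, SE 0.18, adjusted p = 7.88e-13). Its own call in EV-C5a was lost in 6 of 14 other settings, as given above. HBEGF (1.3, SE 0.2, adjusted p = 0.000107) and EREG (1.65, SE 0.47, adjusted p = 0.0155) fell after C5a and were not called in EV-C5a cells. The EREG call was lost without Control replicate 1 (1.42, adjusted p = 0.0762), C5a replicate 1 (1.41, 0.0809) or C5a replicate 2 (1.5, 0.0708). NRG1 was not called (-1.08, adjusted p = 0.0638) except without EV-Control replicate 3 (-1.3, adjusted p = 0.0256).

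The order of the groups differed from gene to gene. Control and EV-Control were the highest AREG groups, at 29.9 ± 1.06 and 25.9 ± 2.89 CPM (SD, n = 3) with overlapping libraries. The 7 groups after them lay below both and overlapped from each to the next, down to EV-IL1b at 12.5 ± 1.3. C5a, at 4.79 ± 1.01, stood alone below them. EREG ran from TNF at 21.7 ± 7.22 CPM through EV-Control (7.97 ± 0.982) and a chain of overlapping groups down to Control (1.84 ± 0.527), then EV-Epinephrine (1.05 ± 0.132) and C5a (0.461 ± 0.212), each apart from the next. HBEGF was the best separated ligand, from TNF at 222 ± 10.7 CPM to C5a at 22.3 ± 2.59. Only the neighbours EV-Control and EV-C5a, EV-C5a and Epinephrine, and EV-TNF and EV-IL1b overlapped in it. Neighbouring NRG1 groups overlapped throughout, from TNF at 4.72 ± 0.71 CPM to EV-TNF at 2.08 ± 0.833, with Control last at 1.12 ± 0.189. TGFA fell into 2 levels, with EV-TNF (2.83 ± 0.927 CPM), EV-IL1b (2.51 ± 0.349) and EV-Epinephrine (2.48 ± 0.346) apart from the other groups, which overlapped from 1.11 ± 0.419 in EV-C5a down to 0.349 ± 0.21 in IL1b. For EGFR, TNF (303 ± 10.8 CPM) and IL1b (167 ± 5.98) each stood apart, the groups from EV-C5a (146 ± 4.04) to EV-Epinephrine (136 ± 1.3) overlapped, and Control (128 ± 3.5) overlapped only the Epinephrine group (116 ± 18.6).

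The make-up of the 5 ligands was described per length, as shares of their summed CPM per kb in a library. In Control, HBEGF made up 56.4% ± 2.33 (SD, n = 3) and AREG 42.4% ± 2.25 of the sum. In TNF cells HBEGF made up 85.4% ± 2.13, AREG 9.63% ± 1.05 and EREG 4.34% ± 1.11. The shares in IL1b cells were close to those of Control, at 52.8% ± 1.82 for HBEGF and 42.3% ± 1.84 for AREG, although the sum was lower. The sum was 42.8 ± 0.82 CPM per kb in Control, 86.2 ± 6.22 after TNF, 20.9 ± 0.879 after IL1b, 10.7 ± 1.15 after C5a and 39.6 ± 3.29 after epinephrine.

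Among vesicle groups the sum was 58.4 ± 13.8 CPM per kb in EV-Control and 42.9 ± 2.76 in EV-C5a. It was lower in EV-TNF (29.8 ± 2.86), EV-IL1b (26.7 ± 0.877) and EV-Epinephrine (23.7 ± 0.272), below every EV-Control and EV-C5a library. TGFA made up 1.91% ± 0.614 of the sum in EV-TNF, 1.89% ± 0.201 in EV-IL1b and 2.11% ± 0.308 in EV-Epinephrine, against 0.329% ± 0.0536 in EV-Control. HBEGF and AREG together made up most of the sum in every group.

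**Figure D3:**
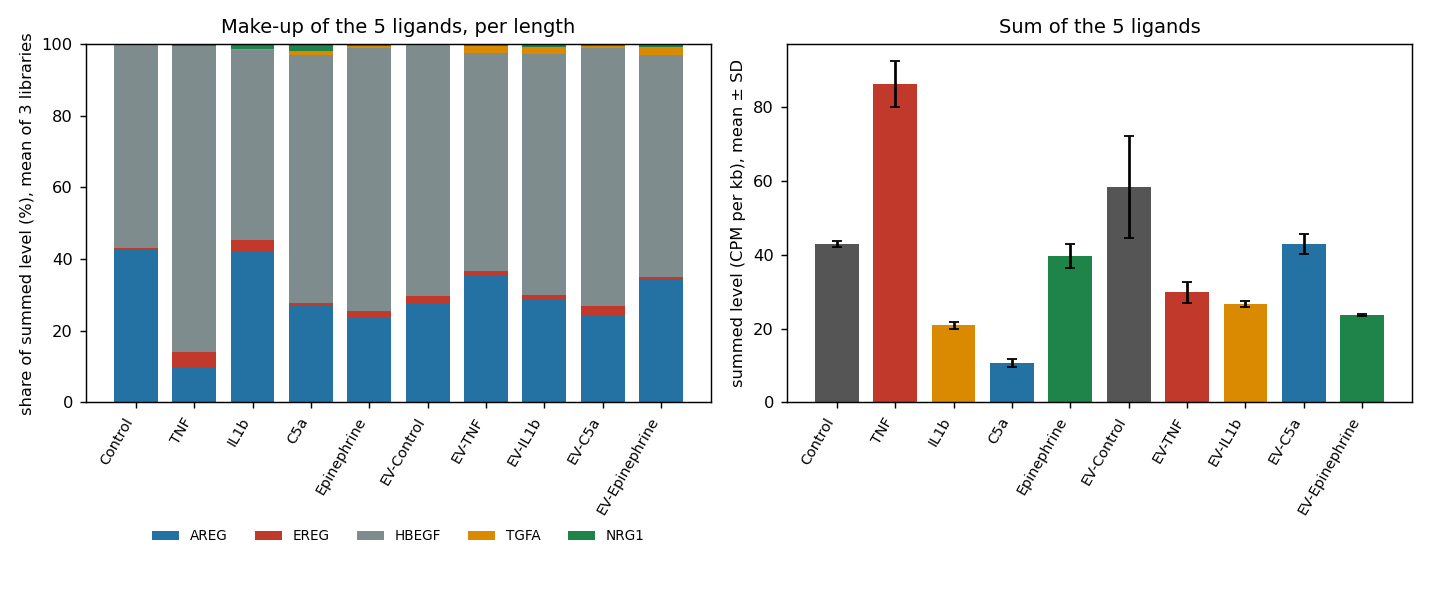
Left, mean share of each ligand in the summed CPM per kb of the 5 ligands in each group of 3 libraries; right, that sum as mean ± SD. HBEGF reached 85.4% in TNF cells, and the sum ran from 10.7 CPM per kb after C5a to 86.2 after TNF.

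Across the 30 libraries, EREG and HBEGF varied together more than any other pair of members (Pearson r 0.87, Spearman rho 0.803 of log2 CPM). EREG and AREG, of the same cluster, varied together less (r 0.48, rho 0.345), and for AREG and HBEGF r was 0.558. These values describe libraries that fall into 10 groups and share their scaling, so they are not independent points. The C5a libraries were lowest for all 3 genes, whereas the TNF libraries were highest for EREG and HBEGF and not for AREG.

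**Figure D4:**
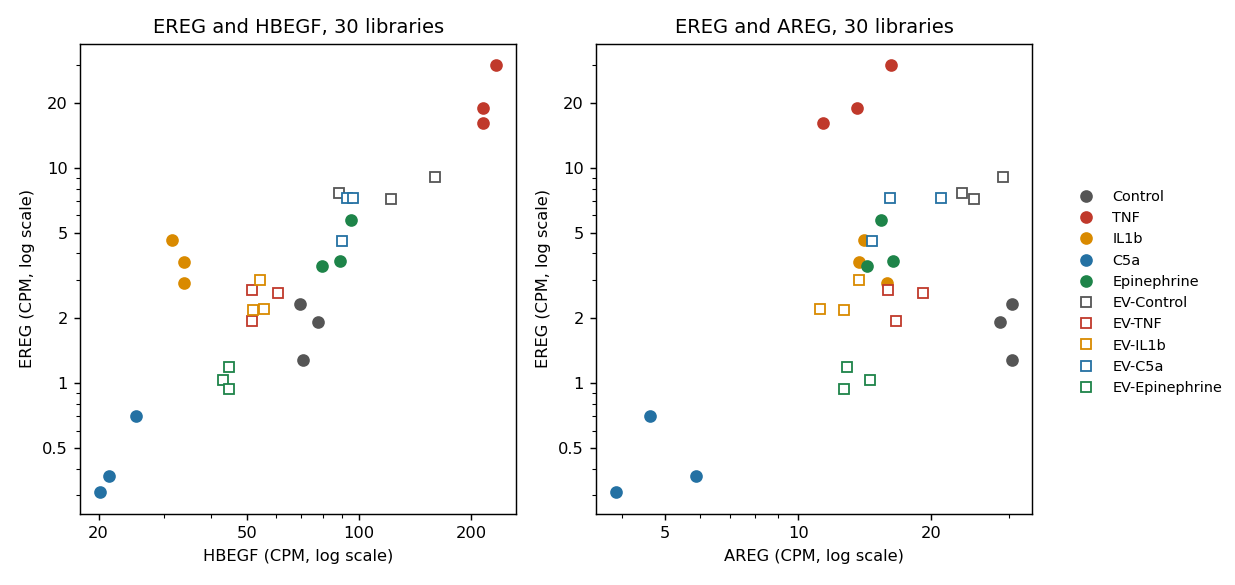
EREG against HBEGF (left) and AREG (right) in the 30 libraries, in CPM on log axes; colours mark the stimulus and open squares the vesicle groups. Over all libraries r was 0.87 for EREG and HBEGF and 0.48 for EREG and AREG.

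Among 11054 other genes, those with the pattern most like EREG over the 30 libraries were TNFAIP3 (r 0.976), DDX3X (0.964) and ETS2 (0.951). For HBEGF they were PNRC1 (0.975), BTG1 (0.962) and F2RL1 (0.956), and for EGFR TAPBP (0.973), TRIM26 (0.973) and XRN1 (0.969). AREG had less close companions, NR1D1 (0.815), CSNK1E (0.804) and MEF2D (0.764). TGFA was most like LIMCH1 (0.89), UCHL1 (0.886) and FAT1 (0.883), and NRG1 most like GCNT1 (0.846), RIOK1 (0.827) and PPP2R2A (0.825).

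Of the other ligands of the family, BTC, the betacellulin gene of the AREG and EREG cluster, rose after TNF from 0.377 to 5.58 CPM (log2 3.86, SE 0.37, adjusted p = 4.37e-11). It rose after IL1b to 0.906 CPM (log2 1.26, adjusted p = 0.0192). EPGN, the next gene upstream of EREG, stayed at or below 0.821 CPM in group means and was called only between epinephrine and C5a (log2 1.46, adjusted p = 0.0347), and not with DESeq2. NRG2 fell after TNF (log2 -1.37, adjusted p = 1.75e-06), IL1b (-1.22, 1.06e-05) and epinephrine (-1, 0.000345) and rose in EV-TNF (0.58, 0.0057) and EV-Epinephrine (0.45, 0.0307). The NRG2 call in EV-Epinephrine was not made with DESeq2. EGF, NRG3 and NRG4 were at or near 0 and were not tested.

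Of the other receptors, ERBB2, the partner without a ligand of its own, fell after TNF from 126 to 99.4 CPM (log2 -0.34, adjusted p = 2.19e-07), after IL1b (-0.41, 1.03e-08) and after epinephrine (-0.27, 5.63e-05). ERBB2 was also lower in EV-Control, at 112 CPM, than in Control (-0.17, 0.00408). Against EV-Control it was higher in EV-Epinephrine, at 125 CPM (0.16, 0.00552), a level near that of Control. ERBB3, a receptor of NRG1, fell after TNF from 2.22 to 0.285 CPM (log2 -2.89, adjusted p = 6.79e-07) and after IL1b to 0.879 CPM (-1.33, 0.00231). ERBB4, the other NRG1 receptor, was near 0 and was not tested.

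Of 12 genes of ligand processing and release, 9 rose and 1 fell after TNF (median log2 0.46, against -0.012 over all genes, of which 27.5% rose). Scaling by total counts gave 6 higher and 4 lower, with ADAM9 turning from higher to lower (-0.16, adjusted p = 0.000509). The calls of ADAM15 (-0.09, adjusted p = 0.102) and ADAM19 (0.14, 0.0896) were lost under it, while ADAM12 (-0.66, 0.0357) and FRMD8 (-0.32, 4.58e-06) were newly called lower. ADAM17, the main sheddase of AREG, EREG, HBEGF and TGFA, rose under the TMM factors (log2 0.75, SE 0.065, adjusted p = 2.97e-12). So did ADAM8 (2.29, SE 0.14, adjusted p = 3.07e-16), the ADAM17 regulator RHBDF2 (1.68, SE 0.062, adjusted p = 6.66e-23) and the metalloprotease inhibitor TIMP3 (1.05, SE 0.047, adjusted p = 3.82e-20). ADAM17 is named here outside the rule for named genes, with its values known. After C5a none of the 12 rose and 7 fell (median -0.23, against -0.002 over all genes, of which 10.8% fell), among them ADAM8 (-0.86, adjusted p = 0.000375), TIMP3 (-0.41, 5.35e-08) and ADAM17 (-0.31, 0.00064). After IL1b 1 rose and 4 fell (median -0.06), a share under the 46.6% of all genes called. After epinephrine 2 rose and 5 fell (median -0.05), beside 13.5% of all genes higher and 11.8% lower. In EV-Control against Control 2 rose and 3 fell (median -0.06), beside 12.1% of all genes higher and 9.8% lower. In EV-TNF and EV-C5a none was called by edgeR or DESeq2, and 1 in each had an unadjusted p under 0.05. In EV-IL1b only TIMP3 was called (-0.16, 0.0499), and not with other scalings or DESeq2. In EV-Epinephrine 4 rose, RHBDF2 (0.2, 0.0215) among them, beside 9.12% of all genes.

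Of 21 ERK feedback and target genes, 16 rose and 2 fell after TNF (median 0.55), beside 27.5% of all genes higher and 25.3% lower. With scaling by total counts 12 rose and 4 fell. Among those that rose were IL11 (log2 2.84), FOSL1, an AP-1 subunit (2.13), and MYC (1.26). After IL1b 9 rose and 8 fell (median -0.07, all genes 24% and 22.6%), with falls in the feedback genes SPRY4 (-2.01) and DUSP5 (-1.78) and a rise in MYC (0.98). After C5a 5 rose and 9 fell (median -0.23; all genes 11.8% and 10.8%), with SPRY4 at -2.59, DUSP5 at -2.1, IER3 at -1.27 and EGR1 at 1.24. After epinephrine 9 rose and 7 fell (median 0.25; all genes 13.5% and 11.8%), with EGR1 at 1.04 and SPRY2 at -1.01.

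In EV-Control against Control, 10 of the 21 ERK genes rose and 1 fell (median 0.24; all genes 12.1% and 9.8%), with FOSL1 at 0.92 and MYC at 0.87. In EV-TNF 8 rose and 3 fell (median 0.16), beside 5.9% of all genes higher and 7.42% lower. In EV-IL1b 7 rose and 3 fell (median 0.16), beside 6.49% and 8.14%, and in EV-Epinephrine 7 rose and 7 fell (median 0.09), beside 9.12% and 10.5%. EGR1 was among those that rose in EV-TNF (1.48, adjusted p = 0.0112) and EV-IL1b (1.36, 0.0162), and FOSL1 among those that fell in EV-TNF (-0.76) and EV-Epinephrine (-1.05). None was called in EV-C5a by edgeR or DESeq2, with 1 at an unadjusted p under 0.05.

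Of 19 adaptors and negative regulators tested, 7 rose and 5 fell after TNF (4 and 12 with total counts) and 6 and 5 after IL1b. Those shares are near the 52.7% and 46.6% of all genes called and are no result about the list. After C5a 4 rose and 4 fell, and after epinephrine 6 and 3, beside 22.6% and 25.2% of all genes called. In EV-Control against Control 8 rose and 3 fell (6 and 3 with total counts), beside 12.1% of all genes higher and 9.8% lower. ERRFI1, which encodes an inhibitor that binds the receptor itself, rose after TNF from 267 to 500 CPM (log2 0.9, adjusted p = 1.05e-16) and after epinephrine (0.72, 8.04e-13), fell after C5a (-0.29, 7.63e-05) and was higher in EV-Control than in Control (0.55, 3.75e-06). In EV-Epinephrine 7 of the 19 fell and none rose (with total counts 6 fell and 1 rose), beside 10.5% of all genes lower, with ERRFI1 at -0.47 (adjusted p = 0.0016). In EV-TNF 2 rose and 4 fell, beside 13.3% of all genes called, and in EV-IL1b 1 rose and 3 fell, beside 14.6%. In EV-C5a none was called by edgeR or DESeq2, with 3 at an unadjusted p under 0.05.

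**Figure D5:**
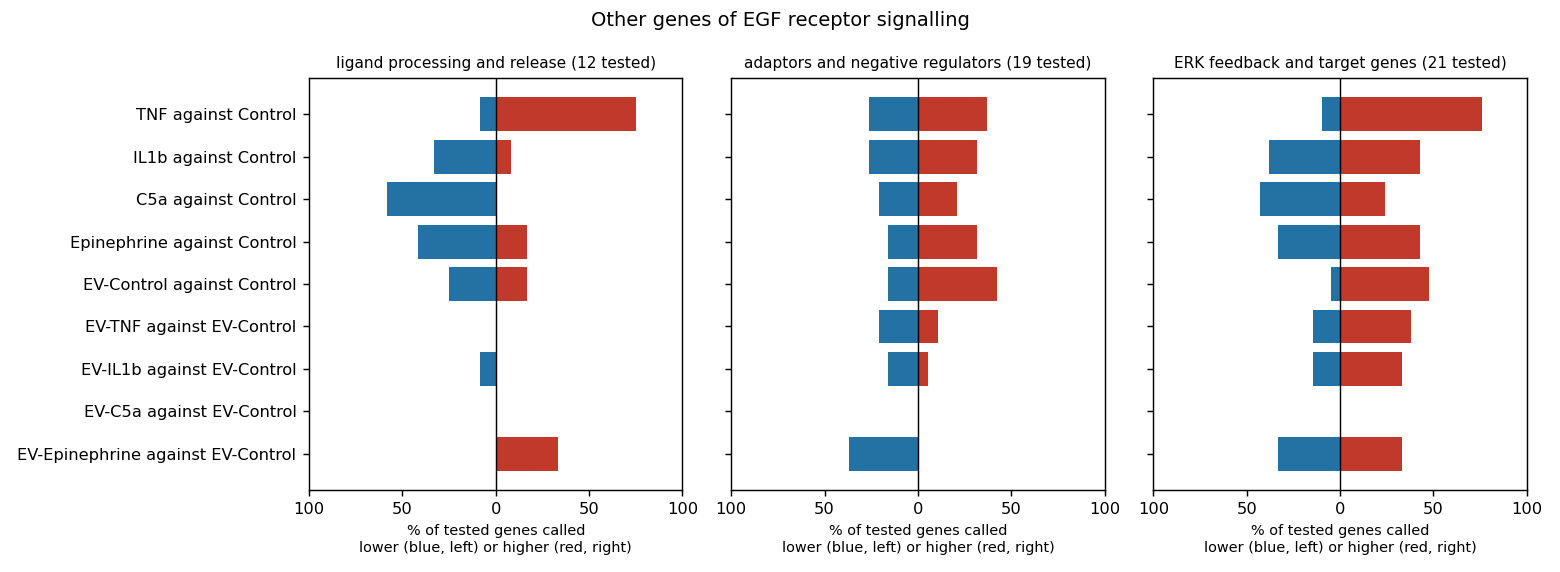
Share of the tested genes of 3 lists that were called lower (blue, left) or higher (red, right), in percent, in 9 comparisons. After TNF 9 of 12 processing genes and 16 of 21 ERK genes rose, and in EV-C5a no gene of these lists was called.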

How the data were processed

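RNA of 30 hCMEC/D3 libraries was counted per gene. The authors deposited raw counts per Ensembl gene, with no normalization. Per the submitters' processing notes, reads were processed with the hg38 build, FastQC, STAR, DESeq2 and R 4.4.1. The counting program, annotation release and strand setting are not given in the sources used here. Libraries were made from 1 ng of RNA, per the labels' protocols.

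Of 63147 lines, 4 had no gene ID (at most 0.00164% of a library) and were left out, as were 2 with missing counts and 3 that repeated a gene ID with the same counts. Differences between groups were tested with edgeR 4.0.16 in R 4.3.3 (filterByExpr by group, TMM factors, robust quasi-likelihood test, two-sided, Benjamini-Hochberg adjustment over all genes tested, threshold 0.05), in fits of the 15 direct (15908 genes), 15 vesicle (15918 genes) or all 30 libraries (16691 genes). The edgeR test was tested on simulated data for 1 comparison, TNF against Control. Intervals are 95%, from the t distribution with the residual degrees of freedom (10 or 20), and SE is the log2 fold change divided by the root of F. Correlations used log2 CPM with a prior count of 2, and lengths are merged exons of GENCODE 29. Replicate pairs differed by a chi-square of 2.04 to 12.9 per gene, so none was counted as 1 library.

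Members and lists were chosen with earlier results of these data known. From each list up to 4 genes called with the largest change and at least 5 CPM in the higher group were to be named, and the 3 genes most like each member. For 1 gene under this rule no result is reported here. Alternatives were relative log expression (RLE) and total-count scaling, no filter or a mean of 50 counts, DESeq2 1.42.0, a replicate block, other sets of libraries and leaving out each library.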

Additional observations from a re-analysis of the deposited data

Results flagged for a closer look

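The response to vesicles and the response to the stimulus itself differed, by the test of that difference in all 30 libraries with edgeR, in 16 of the cases tested. These were 6 of 6 genes for TNF, 4 of 6 for IL1b, 3 of 6 for epinephrine and 3 of 6 for C5a. Of all genes, 44.7%, 35.2%, 24.2% and 11.9% were called in the same tests. Each value is the log2 vesicle response (against EV-Control) minus the log2 direct response (against Control).

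For TNF the difference was -5.28 for EREG, -2.79 for HBEGF, -2.16 for NRG1, -1.29 for EGFR, 0.53 for AREG and 1.87 for TGFA. For IL1b it was -2.7 for EREG, -1.43 for NRG1, -0.36 for EGFR and 2.13 for TGFA. For epinephrine it was -4.14 for EREG, -1.75 for HBEGF and -1.25 for NRG1. For C5a it was 2.06 for AREG, 1.65 for EREG and 1.3 for HBEGF.

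EREG stands in each of the 4 sets, with the sign of C5a opposite to that of the others. The TGFA differences rested on Control replicate 2, without which they were 1.03 for TNF (adjusted p = 0.254) and 1.27 for IL1b (0.179). For epinephrine the TGFA difference was 1.13 (adjusted p = 0.163), and whether it differed from those of the cytokines was not tested. The levels behind these differences are given with each comparison, and no explanation of them was tested.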

How the results depend on the processing

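No member reversed its direction in a called result. Of the recomputed member fold changes 1313 kept their side of the threshold, 24 lost and 7 gained a call. Those that kept it include uncalled values near 0 that changed sign, such as NRG1 in EV-C5a (-0.02, with a range of -0.22 to 0.28). With C5a vesicles 0 members were called, in place of 1, with DESeq2 or when only those 6 libraries were fitted, and 0 to 2 when 1 library was left out. Of all genes, 8 were called there, 1202 at an unadjusted p under 0.05, 73 without the filter and 2 with DESeq2, and 2 to 175 with 1 library left out (175 without EV-Control replicate 3). With a mean of at least 50 counts the IL1b difference between vesicle and direct responses kept 2 of 4 members, since TGFA and NRG1 fell below that filter and were not tested. The same filter left TGFA untested in every fit and NRG1 untested in the vesicle fit and the fit of all 30 libraries. Their calls in the other comparisons of those fits were therefore not recomputed under it. Leaving out 1 library gave 4 to 5 members for IL1b, 3 to 4 for epinephrine against C5a, 2 to 3 for EV-Control against Control, and, for the differences between vesicle and direct responses, 5 to 6 (TNF), 3 to 4 (IL1b), 2 to 4 (C5a) and 2 to 3 (epinephrine). The cause of the other changes was not tested. Replicate numbers did not pair the libraries (correlations of same-numbered deviations -0.0393 to 0.0286), and a replicate block changed 0 of 90 member calls. With total counts in place of TMM factors, higher genes made up 22.7% in place of 52.1% of those called after TNF, 38.6% in place of 51.5% after IL1b, 76.1% in place of 48.1% for IL1b against TNF, 60.2% in place of 46.4% in EV-Epinephrine and 42.6% in place of 55.3% in EV-Control. At 2 to 69 counts a library, TGFA limits what could be detected.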
